A study of Homo sapiens with 6 samples.

Results

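The 50 genes described here encode the glucose transporters, the enzymes of glycolysis, the proteins that bring pyruvate into mitochondria, the enzymes of the pentose phosphate pathway and most of the tricarboxylic acid (TCA) cycle, together with malic enzyme. They were listed by name along the route of glucose carbon and not by a cut on measured values, though with earlier results of these data known. They are 50 of the 62700 human genes in the table. The RNA came from A549 cells, a widely used cell line from a human lung adenocarcinoma, grown in RPMI-1640 with fetal bovine serum. The sgControl group holds 3 libraries of cells with a control guide RNA, labelled wild type, and the sgH2AC19 group holds 3 libraries of knockout derivatives with a guide against H2AC19, which encodes a histone H2A made in S phase. The labels do not say whether the knockout cells were a clone or a pool, nor whether replicates were separate cultures, so a p-value here reflects only how far these libraries differ, and that spread may be technical. H2AC19 was listed at 0 FPKM in all 6 libraries, as was its near copy H2AC18, so the target checks neither the knockout nor the labels.

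The unit FPKM counts fragments per kilobase of a gene, scaled by the size of the library, so levels of genes of different length can be set side by side. The spacing of low values gave totals of 35681162 to 45738439 reads per library. More genes lay at 2 reads (1772 to 1966 per library) than at 1 (1028 to 1079). A read here may thus be 1 mate of a pair, and read numbers given below may overstate the number of independent fragments. Epithelial markers were present (7 of 7 at 1 FPKM or more in at least 3 libraries, summing to 835 to 865 FPKM in sgControl and 965 to 1011 in sgH2AC19). All 7 were called by limma, with EPCAM, KRT8, KRT18 and CDH1 higher and KRT19, KRT7 and CLDN4 lower in sgH2AC19. Of the markers of other cell types, 0 of 6 endothelial, 3 of 7 fibroblast and 1 of 6 leukocyte genes reached that level. Their sums were 0.144 to 0.218 against 0.213 to 0.269 FPKM for endothelial, 4.47 to 5.04 against 6.63 to 7.14 for fibroblast and 1.69 to 2.32 against 2.25 to 3.22 for leukocyte genes, sgControl first. The leukocyte marker CD3E was at 0 in all 6 libraries, and the part of these markers in the results below was not tested. In bulk RNA, fewer cells of a type and less RNA per cell cannot be told apart.

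Glycolysis splits glucose into pyruvate in the cytosol, and tumour cells such as A549 turn much of that pyruvate into lactate even when oxygen is present. Several of its genes are known targets of the hypoxia-inducible factors and of MYC, which bind the E-box-like words CACGTG and ACGTG. The pentose phosphate pathway takes glucose 6-phosphate to NADPH and ribose phosphate, and with malic enzyme it is a known target of the antioxidant factor NRF2, which is constitutively active in A549. The TCA cycle oxidises the acetyl group made from pyruvate in mitochondria.

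All 50 genes were tested, with 49 at 1 FPKM or more in all 6 libraries. Of these, 12 fell, 5 rose and 33 were not called in sgH2AC19 (limma on log2(FPKM + 1) values of 12871 genes, with 0.05 as the limit on the Benjamini-Hochberg adjusted p). That is 34.0% of the members, where 23.1% of all genes tested were called, 11.0% down and 12.0% up. From uptake to lactate, 10 of 22 genes fell and 1 rose. Of 9 genes of pyruvate entry 0 were called by limma, and 0 had an unadjusted p under 0.05, where 4838 of the 12871 genes tested did. Of 6 pentose phosphate genes 1 rose and 0 fell, and 2 had an unadjusted p under 0.05. Among 12 TCA cycle genes 2 rose and 2 fell, and malic enzyme ME1 rose. The median log2 fold change was −0.23 over the uptake-to-lactate genes, 0.02 over pyruvate entry, 0.01 over the pentose phosphate genes, 0.02 over the TCA cycle and −0.01 over all genes tested. The groups did not overlap in 27 of the 50 genes (54.0%, against 43.2% of all genes tested). The count of members called fell to 7 without sgControl replicate 2, 6 without sgControl replicate 3 and 10 without sgH2AC19 replicate 1 or 2, and was 23 without sgH2AC19 replicate 3. Over all genes tested the count moved likewise from 2967 to 1522, 1655, 2157, 2001 and 3468 in those fits, in the order sgControl replicates 2 and 3 and sgH2AC19 replicates 1, 2 and 3.

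**Figure D1:**
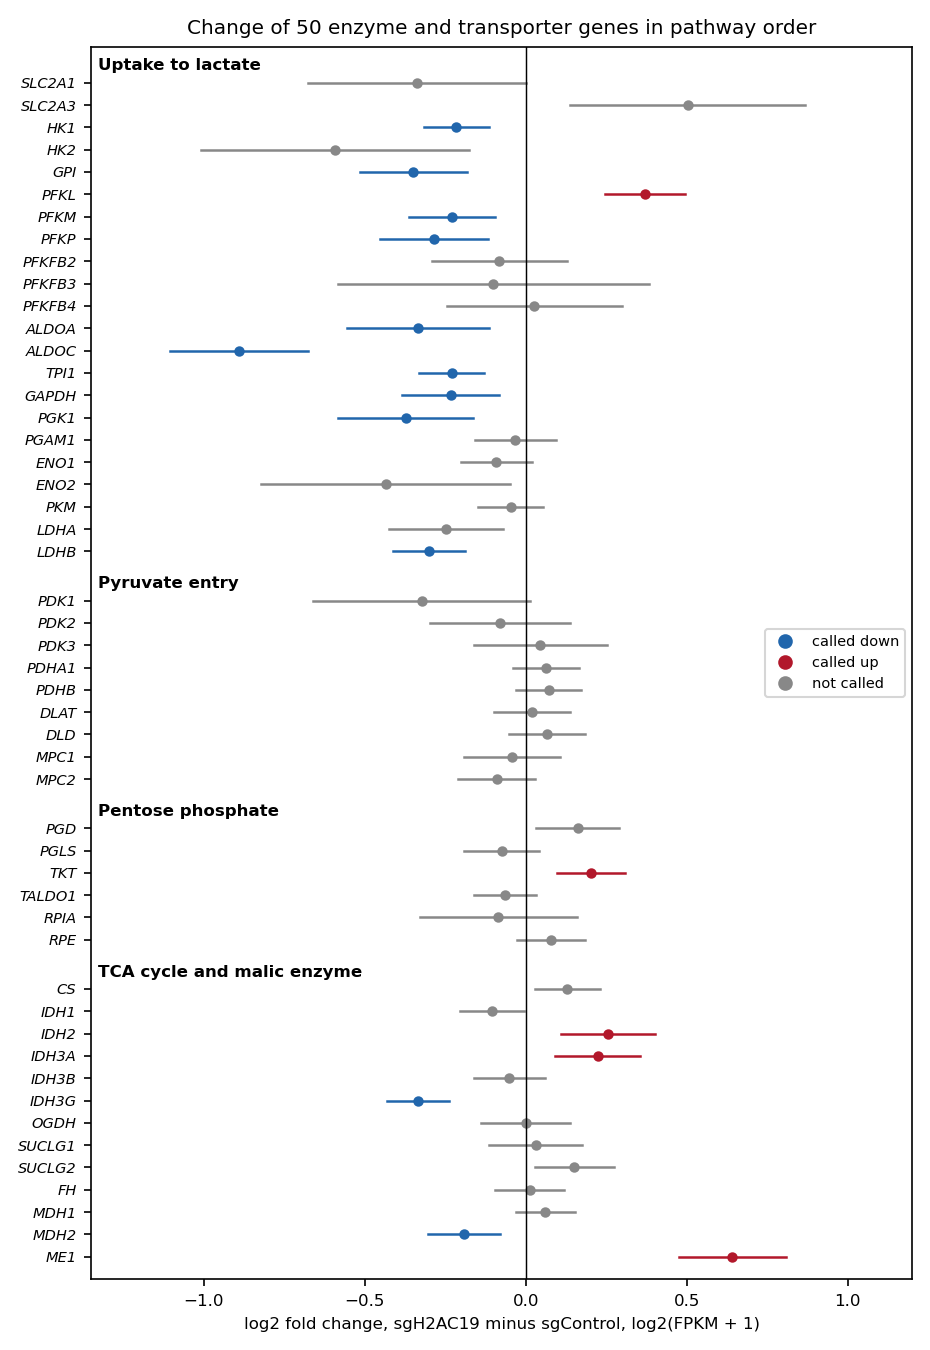
Log2 fold change (x axis, sgH2AC19 minus sgControl on the log2(FPKM + 1) scale) of the 50 genes in pathway order (y axis), as limma estimates with 95% intervals, 3 libraries a group. Called falls (12) lie mostly between HK1 and LDHB, with ALDOC lowest at −0.89, and ME1 is the highest at 0.64.

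Short promoter stretches of some of the genes are shown first, and the words searched in them are those of the factors named above. The stretches are a selection and not all matches. Of genes not called only LDHA is printed, while CACGTG in PDHB and ACGTG in HK2, ENO2 and DLAT, for example, are not. A part of these words in the changes was not tested. The sequences are from RefSeq (GRCh38.p14), read 5′ to 3′ on the gene's strand and lying wholly before the RefSeq start used here. The gene bounds of the GENCODE annotation are wider for most of these genes. By those bounds the stretches of ALDOC, GAPDH, PGK1 and GPI, and that of LDHA at 87 bases, lie inside the gene. The LDHA stretch at 185 bases spans the GENCODE start, and only the ME1 stretch lies wholly before the GENCODE start. Capitals mark the word that was searched. For ALDOC, the gene that fell most, CACGTG lies 240 bases before the start (chr17:28577120-28577145, minus strand) and a further ACGTG, on the opposite strand, 28 bases before it (chr17:28576908-28576933). GAPDH and LDHA hold CACGTG 81 bases (chr12:6535173-6535198, plus strand) and 87 bases (chr11:18394466-18394491, plus strand) before the start, and LDHA (not called) holds it again at 185 bases (chr11:18394368-18394393). PGK1 holds ACGTG at 202 bases (chrX:78104036-78104061, plus strand) and GPI at 162 bases (chr19:34364820-34364845, plus strand). For ME1, the gene that rose most, the word is TGACNNNGC, the core of the antioxidant response element, at 137 bases (chr6:83431171-83431196, minus strand). The same word also lies 161 bases before the start of PFKL, which rose. In genes that fell it lies at 208 bases in ALDOC, 171 bases in IDH3G and 88 bases in GAPDH. In GAPDH it overlaps the stretch printed here and is not capitalised.
ALDOC, 240 bases: aagtgcccggCACGTGgtaaagggat
ALDOC, 28 bases: ccggaggagtCACGTagctctgcgac
GAPDH: tctgcggggtCACGTGtcgcagagga
LDHA, 87 bases: gcccgactcaCACGTGggttcccgca
LDHA, 185 bases: actcccagcgCACGTGgagcagtctg
PGK1: ggcgtgccggACGTGacaaacggaag
GPI: actgcctgtaACGTGgaaggtgttcg
ME1: tcctgccaTGACTCAGCgcttctcgc

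Promoter windows of 300 bases (250 before the RefSeq start to 50 after it) were found in RefSeq for 47 of the 50 genes. On either strand, ACGTG was in 14 of these 47 (29.8%), against 27.8% of the windows of all genes tested and 21.6% of all windows. It was in 8 of 20 windows of the uptake-to-lactate genes, 3 of 9 of pyruvate entry, 1 of 6 of the pentose phosphate genes and 2 of 12 of the TCA cycle and ME1. Among genes that fell it was in 6 of 12, among genes that rose in 0 of 5, and among genes not called in 8 of 30. The longer word CACGTG, which contains ACGTG, was in 4 of 47 (ALDOC, GAPDH, LDHA and PDHB), against 10.4% of the windows of genes tested. The hypoxia response variant GCGTG was in 27 of 47, against 51.8% of the windows of genes tested, and its split ran the other way, with 4 of 12 genes that fell, 4 of 5 that rose and 19 of 30 not called. TGACNNNGC was in 10 of 47 (21.3%), against 15.3%, and in 3 of 12 genes that fell, 2 of 5 that rose and 5 of 30 not called. These are matches of letters in these windows and do not show binding.

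At the cell surface the 2 glucose transporters among the members were not called, with estimates of opposite sign. SLC2A1 encodes GLUT1, the basal transporter of most cell types. It was at 42.8, 59.5 and 45.0 FPKM in sgControl replicates 1 to 3 and 37.2, 33.5 and 44.9 FPKM in sgH2AC19 replicates 1 to 3. The groups overlapped, with sgControl replicate 2 above all other libraries, and the estimate, −0.34 on the log2 scale (SE 0.144, limma adjusted p = 0.135), was not called. Without sgControl replicate 2 it was −0.19, also not called. SLC2A3 encodes GLUT3, a transporter of high affinity known best from neurons. It was at 23.3, 35.0 and 25.5 FPKM in sgControl and 36.1, 36.9 and 45.9 FPKM in sgH2AC19. All sgH2AC19 libraries were above all sgControl libraries, the nearest pair being 35.0 and 36.1. The log2 fold change was 0.50 (SE 0.155, limma adjusted p = 0.055) and was not called. It passed without sgControl replicate 2 (adjusted p = 0.019) and with voom on the recovered reads (0.0137).

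SLC2A3 made up 35.2%, 37.1% and 36.2% of the summed FPKM of both in sgControl, and 49.2%, 52.4% and 50.5% in sgH2AC19. The means were 36.1 ± 0.932% and 50.7 ± 1.62% (SD, n = 3 each, exact permutation test, two-sided, p = 0.1, Benjamini-Hochberg adjusted p = 0.2 over 16 shares). With 3 libraries against 3, 0.1 is the smallest p this test can give. The summed FPKM of both transporters overlapped between the groups, at 66.1 to 94.5 in sgControl and 70.3 to 90.8 in sgH2AC19. The sum was highest in sgControl replicate 2 and sgH2AC19 replicate 3, while the shares of these libraries were close to those of the others in their groups.

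Hexokinases trap glucose in the cell as glucose 6-phosphate. HK1, the housekeeping form, was at 27.9, 29.6 and 29.7 FPKM in sgControl and 25.2, 25.0 and 24.4 FPKM in sgH2AC19. All sgH2AC19 libraries were below all sgControl libraries, and HK1 fell by 0.22 on the log2 scale (SE 0.0432, limma adjusted p = 0.0133). Leaving out sgControl replicate 2 or 3 ended the call (limma adjusted p = 0.0565 to 0.0591). HK2, the form induced in tumours, was at 8.10, 12.5 and 7.63 FPKM in sgControl and 5.27, 5.21 and 6.92 FPKM in sgH2AC19. Its groups did not overlap either, but sgControl replicate 2 stood well above the other controls. The estimate of −0.59 on the log2 scale had an SE of 0.177 and was not called (limma adjusted p = 0.0506). It passed without sgH2AC19 replicate 3 (adjusted p = 0.0352), with a pseudocount of 0.1 (0.0494) and with voom on the recovered reads (0.0132). Without sgControl replicate 2 the estimate was −0.39, not called.

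GPI, which turns glucose 6-phosphate into fructose 6-phosphate, averaged 83.3 ± 4.38 FPKM in sgControl and fell to 65.3 ± 5.65 FPKM in sgH2AC19 (log2 fold change −0.35, SE 0.0703, limma adjusted p = 0.0138). Its sgControl libraries were at 79.1, 87.8 and 83.1 FPKM and its sgH2AC19 libraries at 64.3, 60.3 and 71.4 FPKM, without overlap. Leaving out sgControl replicate 2 ended the call (limma adjusted p = 0.0549).

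Phosphofructokinase commits the sugar to glycolysis, and of its 3 isoforms PFKP and PFKM fell while PFKL rose. PFKP, the platelet form and the most abundant here, was at 54.1, 62.1 and 59.8 FPKM in sgControl and 46.5, 45.5 and 52.2 FPKM in sgH2AC19. PFKM, the muscle form, was at 11.1, 12.1 and 12.03 FPKM in sgControl and 10.5, 9.43 and 9.76 FPKM in sgH2AC19. PFKL, the liver form, was at 4.17, 4.40 and 4.44 FPKM in sgControl and 6.10, 5.58 and 6.04 FPKM in sgH2AC19. Without overlap of the groups, PFKP and PFKM fell by 0.28 (SE 0.0715, limma adjusted p = 0.0291) and 0.23 (SE 0.057, limma adjusted p = 0.0284) on the log2 scale. PFKL rose by 0.37 (SE 0.053, limma adjusted p = 0.00396), the single rise among the 22 uptake-to-lactate genes. PFKL kept its call in all 13 alternatives. PFKP lost its call without sgControl replicate 2 or 3 or sgH2AC19 replicate 1 or 2 (adjusted p = 0.0817 to 0.099). PFKM lost it without sgControl replicate 2 or 3 or sgH2AC19 replicate 2 (0.0817 to 0.0987).

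The share of PFKL in the summed phosphofructokinase FPKM was 5.60% to 6.02% in the sgControl libraries and 8.89% to 9.68% in the sgH2AC19 libraries. PFKP made up 78.0% to 79.0% and 73.7% to 76.8%, so it remained the main isoform in every library. Both shares were separated between groups (exact permutation p = 0.1 each, the smallest possible), whereas that of PFKM overlapped (exact permutation p = 0.8). The bifunctional enzymes that set fructose 2,6-bisphosphate, the activator of phosphofructokinase, were not called. PFKFB3, the most abundant of them and the form with the strongest kinase activity, was at 72.6, 112.6 and 93.2 FPKM in sgControl and 77.2, 70.7 and 113.0 FPKM in sgH2AC19. Its groups overlapped fully, and the spread within each group was larger than the difference (log2 fold change −0.10, SE 0.206, limma adjusted p = 0.763). PFKFB4 was at 7.11 ± 1.15 and 7.23 ± 0.831 FPKM and PFKFB2 at 9.13 ± 0.125 and 8.62 ± 1.19 FPKM, also with overlap.

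**Figure D2:**
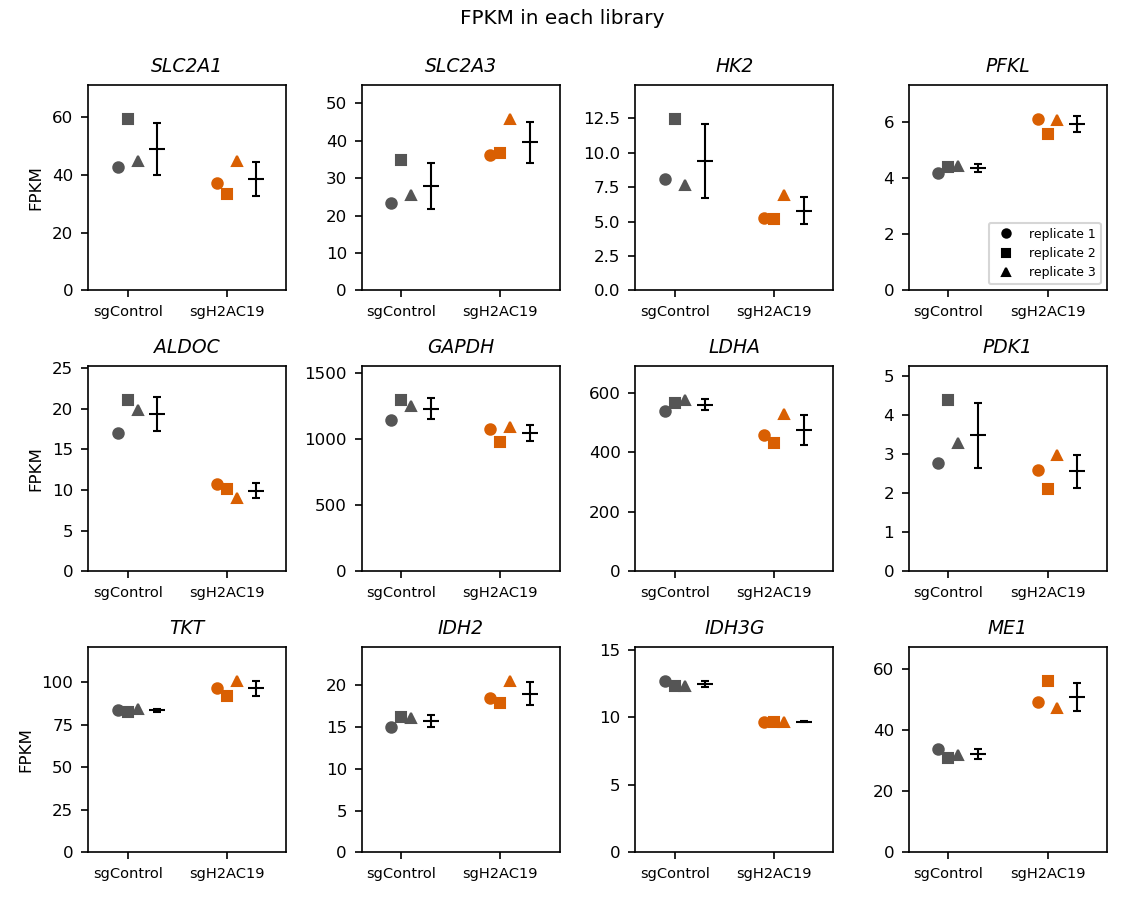
FPKM (y axis, linear from 0) of 12 genes in each library, sgControl in grey and sgH2AC19 in orange, with the symbol giving the replicate and the bar the mean ± SD (n = 3). ALDOC, PFKL, IDH3G and ME1 separate by wide gaps, while SLC2A1 and PDK1 overlap and sgControl replicate 2 is high for SLC2A1, SLC2A3, HK2 and PDK1.

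Aldolase splits fructose 1,6-bisphosphate into triose phosphates, and ALDOC showed the largest change of the route. ALDOC (ENSG00000109107), the brain-type aldolase, lies on chromosome 17 from 28573115 to 28577264 on the minus strand in GENCODE 29 (GRCh38). It was at 17.0, 21.1 and 19.9 FPKM in sgControl and 10.7, 10.1 and 8.98 FPKM in sgH2AC19. The lowest control was well above the highest sgH2AC19 library, and the log2 fold change was −0.89 (SE 0.0913, limma adjusted p = 0.00137). That is a level 0.539 times that of sgControl, as a ratio of FPKM + 1. The call held in all 13 alternatives, with log2 fold changes from −0.98 to −0.83. ALDOA, the main aldolase of most tissues, was at only 4.42, 5.64 and 5.25 FPKM in sgControl and 4.10, 3.38 and 4.02 FPKM in sgH2AC19. It fell by 0.33 on the log2 scale (SE 0.0934, limma adjusted p = 0.0406), a call lost without sgControl replicate 2 or 3 or sgH2AC19 replicate 1 or 2 (adjusted p = 0.0609 to 0.127).

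The levels of ALDOA and LDHB are uncertain. In GENCODE 29 another protein-coding gene model on the same strand, ENSG00000285043, covers 42.3% of the exon bases of ALDOA, and that model was at 0.194 to 0.476 FPKM. How reads that lie in both models were counted is not given in the sources used here. The share of ALDOC in summed aldolase FPKM, 78.9% to 79.4% in sgControl and 69.1% to 74.9% in sgH2AC19, carries the same uncertainty. LDHB, described below, shares 33.4% of its exon bases with a same-strand model, ENSG00000285854, at 0 to 0.0652 FPKM, and its named pseudogenes summed to 6.54% to 18.1% of its FPKM.

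The middle of the pathway, from triose phosphate to phosphoglycerate, fell by small and similar amounts. TPI1 interconverts the triose phosphates, GAPDH makes the first NADH and PGK1 the first ATP of the payoff phase. GAPDH, ranked 27 of all genes by mean FPKM and the most abundant member, was at 1140, 1295 and 1249 FPKM in sgControl and 1073, 974 and 1088 FPKM in sgH2AC19. PGK1 was at 258, 307 and 293 FPKM in sgControl and 222, 198 and 242 FPKM in sgH2AC19. TPI1 was at 238, 251 and 249 FPKM in sgControl and 214, 202 and 214 FPKM in sgH2AC19. In each of the 3 genes all sgH2AC19 libraries were below all sgControl libraries. The log2 fold changes were −0.23 for GAPDH (SE 0.0638, limma adjusted p = 0.0381), −0.37 for PGK1 (SE 0.0898, adjusted p = 0.0249) and −0.23 for TPI1 (SE 0.0433, adjusted p = 0.0109). GAPDH and PGK1 lost their calls without sgControl replicate 2 or 3 or sgH2AC19 replicate 1 or 2 (adjusted p = 0.0639 to 0.123 and 0.0609 to 0.0863). TPI1 lost its call without sgControl replicate 3 (0.0504). Pseudogenes named after TPI1 summed to 49.5% to 57.4% of the FPKM of TPI1 itself, so reads may be split among these copies, while the 65 listed for GAPDH summed to 2.11% to 2.46% of the FPKM of GAPDH.

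The enzymes that follow were not called. PGAM1, which moves the phosphate group of phosphoglycerate, was at 82.1 ± 4.81 and 80.2 ± 2.42 FPKM (log2 fold change −0.03, 95% interval −0.16 to 0.09). ENO1, the enolase of most tissues, was at 473 ± 18.2 and 444 ± 16.9 FPKM (−0.09, 95% interval −0.20 to 0.02). PKM, pyruvate kinase, was at 449 ± 10.5 and 435 ± 16.9 FPKM (−0.05, 95% interval −0.15 to 0.05). These 3 intervals reach no further than 0.20 in size, at 7055 to 173398 reads per library. ENO2, the neuronal enolase, varied more. It was at 35.4, 52.4 and 42.6 FPKM in sgControl and 29.9, 27.0 and 38.5 FPKM in sgH2AC19 (log2 fold change −0.44, SE 0.165, limma adjusted p = 0.0993), and passed without sgH2AC19 replicate 3 (adjusted p = 0.0349) and with voom on the recovered reads (0.0344).

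Lactate dehydrogenase closes the route. LDHA, which favours the making of lactate, was at 539, 567 and 577 FPKM in sgControl and 459, 433 and 530 FPKM in sgH2AC19. All sgH2AC19 libraries were below the controls, with sgH2AC19 replicate 3 close to them. The estimate of −0.25 on the log2 scale (SE 0.075) was not called by limma (adjusted p = 0.0525), and passed without sgH2AC19 replicate 3 (adjusted p = 0.00415) and with voom on the recovered reads (0.0166). LDHB, the heart form, was at 5.37, 5.12 and 5.12 FPKM in sgControl and 3.97, 4.13 and 4.01 FPKM in sgH2AC19. It fell by 0.30 on the log2 scale without overlap (SE 0.0473, limma adjusted p = 0.00569) and kept its call in all 13 alternatives, within the uncertainty of its level given above.

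Summed over the 22 genes, FPKM from uptake to lactate were 3546, 3948 and 3851 in sgControl and 3302, 3082 and 3512 in sgH2AC19. The means were 3782 ± 209 and 3299 ± 215 (SD, n = 3 each), a ratio of 0.872, with sgH2AC19 replicate 3 just below sgControl replicate 1. The sum is dominated by GAPDH, LDHA, ENO1 and PKM, and made up 1.43% to 1.78% of the FPKM of genes not encoded in the mitochondrial genome.

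Within the groups, the genes of this route varied together. sgControl replicate 2 was the highest control in 15 of the 22 genes, against 33.9% of all genes tested, and sgH2AC19 replicate 3 was the highest of its group in 15 of 22, against 29.2%. Both held at once in 12 of 22 genes (54.5%), against 9.21% of all genes tested. The same was true of 1 of 9 genes of pyruvate entry, 0 of 6 pentose phosphate genes and 2 of 13 genes of the TCA cycle and ME1. The genes with the largest standard errors of the fold change were SLC2A1, SLC2A3, HK2, PFKFB3, ENO2 and PDK1. This pattern was seen in the values and described afterwards, without a test.

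**Figure D3:**
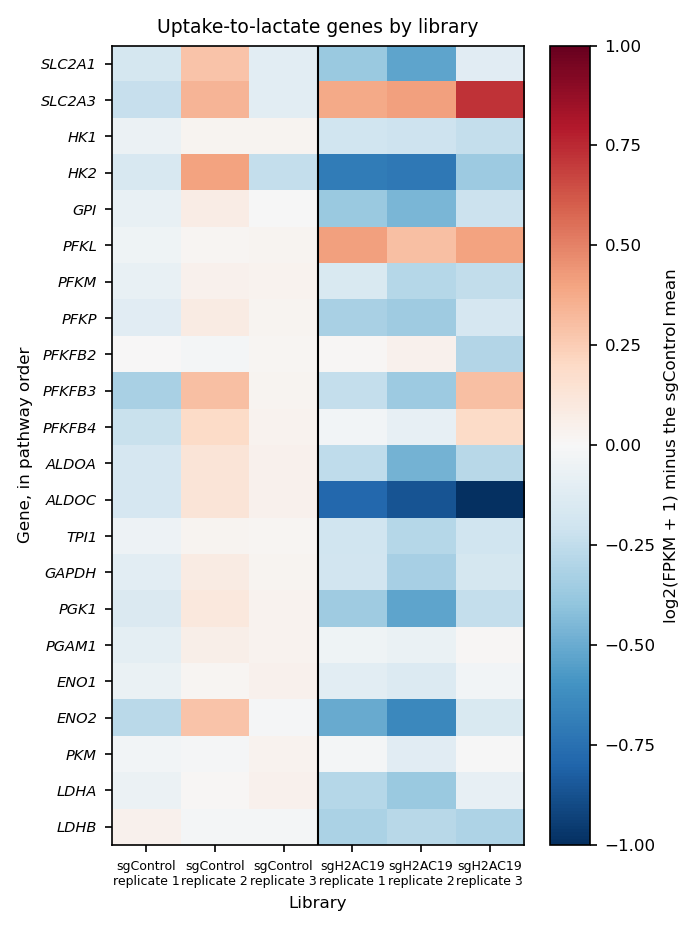
Each library's log2(FPKM + 1) minus the sgControl mean (colour, red above and blue below, values past the ends of the scale taking the end colour) for the 22 uptake-to-lactate genes in pathway order (rows) and the 6 libraries (columns). The median over these genes was −0.10, 0.08 and 0.03 in sgControl replicates 1 to 3 and −0.22, −0.31 and −0.17 in sgH2AC19 replicates 1 to 3, while SLC2A3 and PFKL stand above the control mean in all sgH2AC19 libraries.

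Pyruvate enters mitochondria through the carrier made of MPC1 and MPC2 and is turned into acetyl-CoA by the pyruvate dehydrogenase complex, which PDK1, PDK2 and PDK3 switch off by phosphorylation. None of these 9 genes was called by limma, and none had an unadjusted p under 0.05. The complex subunits lay close to their controls, with PDHA1 at 21.96 ± 0.695 and 22.99 ± 0.565 FPKM and PDHB at 10.5 ± 0.119 and 11.1 ± 0.301 FPKM. DLAT was at 8.77 ± 0.41 and 8.89 ± 0.24 FPKM and DLD, the subunit shared with oxoglutarate dehydrogenase, at 33.9 ± 0.318 and 35.6 ± 2.08 FPKM. The widest 95% interval among these 4 subunits was that of DLD, from −0.05 to 0.18 on the log2 scale. MPC1 and MPC2 were at 3.31 ± 0.195 and 10.6 ± 0.539 FPKM in sgControl and at 3.18 ± 0.22 and 9.93 ± 0.267 FPKM in sgH2AC19. Among the 9 genes the groups did not overlap for PDHB, higher in sgH2AC19, and MPC2, lower in sgH2AC19, and overlapped in 7.

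The 3 kinases among the members were low. PDK1, a known hypoxia target, was at 2.77, 4.39 and 3.28 FPKM in sgControl and 2.59, 2.12 and 2.97 FPKM in sgH2AC19, with overlapping groups (log2 fold change −0.32, SE 0.144, limma adjusted p = 0.147). Without sgControl replicate 2 the estimate was −0.18, also not called. PDK3 was at 2.11 ± 0.30 and 2.20 ± 0.187 FPKM and PDK2 at 1.32 ± 0.102 and 1.21 ± 0.206 FPKM. These 3 kinases summed to 6.91 ± 0.993 FPKM in sgControl and 5.97 ± 0.73 FPKM in sgH2AC19. As a share of that sum, PDK1 was at 46.0% to 56.5% in sgControl and 40.4% to 44.4% in sgH2AC19 (exact permutation p = 0.1, adjusted p = 0.2). PDK4, more abundant than the 3 together, is not counted in that share. PDK4 is a pyruvate dehydrogenase kinase from the listed genes of these routes that are not among the 50. It was at 27.8, 22.9 and 27.5 FPKM in sgControl and 41.3, 39.6 and 41.9 FPKM in sgH2AC19, and rose by 0.64 on the log2 scale without overlap (SE 0.076, limma adjusted p = 0.00217).

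The pentose phosphate genes were abundant for PGD and TKT. PGD, which makes NADPH and ribulose phosphate, was at 330, 301 and 311 FPKM in sgControl and 365, 360 and 330 FPKM in sgH2AC19. The highest control and the lowest sgH2AC19 library nearly met, and the estimate of 0.16 on the log2 scale (SE 0.0547) was not called by limma (adjusted p = 0.0728). It passed without sgH2AC19 replicate 3 (adjusted p = 0.021), with upper-quartile scaling (0.0491) and with voom on the recovered reads (0.0402). TKT, transketolase, which links the pathway back to glycolysis, was at 83.7, 82.4 and 84.3 FPKM in sgControl and 96.5, 91.7 and 100.7 FPKM in sgH2AC19. It rose by 0.20 without overlap (SE 0.0452, limma adjusted p = 0.0193), a call lost without any 1 sgControl library or sgH2AC19 replicate 1 (adjusted p = 0.0519 to 0.0721).

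TALDO1, transaldolase, was at 55.7 ± 1.22 and 53.2 ± 1.55 FPKM and PGLS, the lactonase of the oxidative branch, at 5.98 ± 0.247 and 5.63 ± 0.16 FPKM. The sugar phosphate enzymes RPIA and RPE were at 9.56 ± 0.641 and 23.1 ± 0.449 FPKM in sgControl and 9.01 ± 1.38 and 24.4 ± 0.928 FPKM in sgH2AC19. These 4 genes were not called and their groups overlapped. The summed FPKM of the 6 genes was 492 ± 15.3 in sgControl and 540 ± 18.8 in sgH2AC19, a ratio of 1.10 without overlap, and PGD made up most of it.

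At the entry of the TCA cycle CS, citrate synthase, was at 30.5, 32.1 and 32.3 FPKM in sgControl and 35.4, 34.8 and 33.9 FPKM in sgH2AC19. The groups did not overlap, and the estimate of 0.13 on the log2 scale (SE 0.0429, limma adjusted p = 0.0686) was not called except without sgH2AC19 replicate 3 (adjusted p = 0.0458).

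Isocitrate dehydrogenases moved in both directions. IDH3A, IDH3B and IDH3G encode the subunits of the NAD-dependent enzyme of the cycle. IDH3G, a regulatory subunit, was at 12.7, 12.3 and 12.3 FPKM in sgControl and 9.65, 9.69 and 9.70 FPKM in sgH2AC19. The libraries of each group lay close together, and IDH3G fell by 0.33 on the log2 scale (SE 0.0408, limma adjusted p = 0.0023), with the call kept in all 13 alternatives. IDH3A, the catalytic subunit, averaged 4.89 ± 0.162 FPKM in sgControl and rose to 5.88 ± 0.348 FPKM (0.22, SE 0.0557, limma adjusted p = 0.0281). The third subunit, IDH3B, was at 26.9 ± 0.976 and 25.98 ± 0.872 FPKM (not called). The call of IDH3A was lost without any 1 sgControl library or sgH2AC19 replicate 1 or 2 (adjusted p = 0.0602 to 0.0944). IDH3A and IDH3G share 38.2% and 10.2% of their exon bases with the opposite-strand genes ACSBG1 and SSR4, and whether the counting used strand is not given in the sources used here.

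IDH1 and IDH2 encode the NADP-dependent enzymes of cytosol and mitochondria. IDH1 was at 89.5, 86.5 and 85.2 FPKM in sgControl and 78.0, 81.98 and 82.8 FPKM in sgH2AC19, and IDH2 was at 14.97, 16.2 and 16.1 FPKM in sgControl and 18.6, 17.9 and 20.6 FPKM in sgH2AC19. IDH2 rose by 0.26 without overlap (SE 0.062, limma adjusted p = 0.0254), whereas IDH1 was not called (−0.10, adjusted p = 0.117). The IDH2 call was lost without any 1 sgControl library or sgH2AC19 replicate 1 (adjusted p = 0.0528 to 0.0892). IDH2 made up 14.3% to 15.9% of the summed FPKM of both in sgControl and 17.9% to 19.9% in sgH2AC19 (exact permutation p = 0.1, adjusted p = 0.2).

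**Figure D4:**
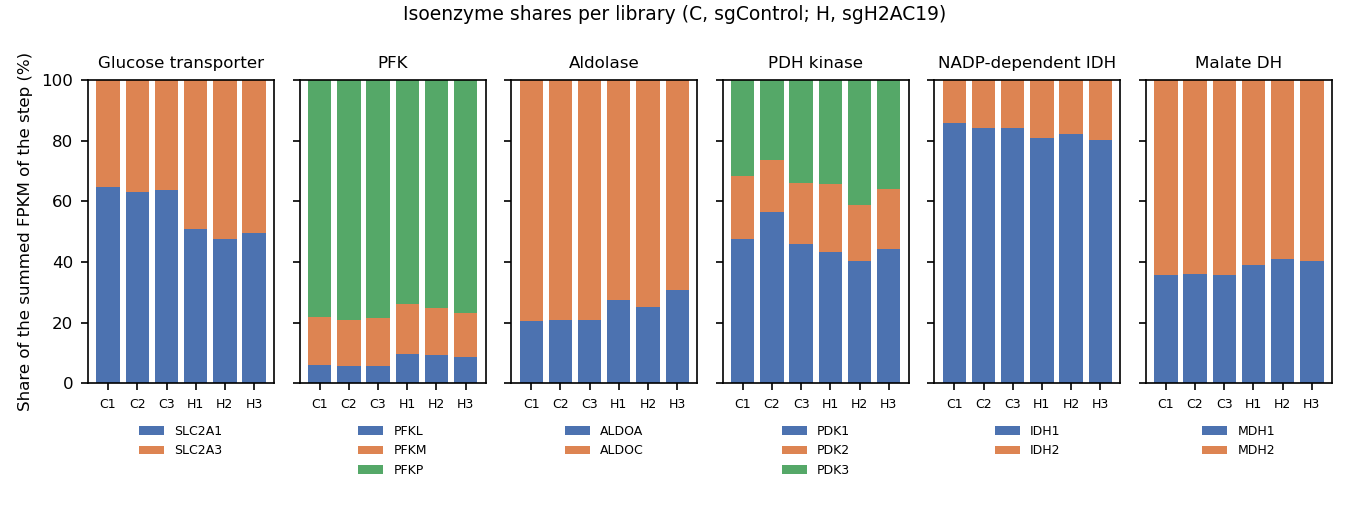
Share of each isoenzyme in the summed FPKM of its step (y axis, percent) in each library (x axis, C1 to C3 for sgControl and H1 to H3 for sgH2AC19). SLC2A3 goes from 36.1% to 50.7% of SLC2A1 and SLC2A3 together on average. PFKL goes from 5.81% to 9.26% of phosphofructokinase, IDH2 from 15.3% to 19.02% and MDH2 from 64.1% to 59.9%.

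Of the remaining genes of the cycle only MDH2 was called. OGDH (oxoglutarate dehydrogenase), SUCLG1 and FH (fumarase) had log2 fold changes of −0.0001, 0.03 and 0.01, with 95% intervals within −0.14 to 0.18. SUCLG2, a subunit of succinyl-CoA ligase, was at 30.1 ± 0.887 and 33.6 ± 1.88 FPKM (0.15, limma adjusted p = 0.0767), and passed without sgH2AC19 replicate 3 (adjusted p = 0.0282). Its named pseudogenes summed to 21.7% to 28.1% of its FPKM. MDH2, the mitochondrial malate dehydrogenase, was at 62.1, 62.4 and 63.3 FPKM in sgControl and 58.1, 53.0 and 53.2 FPKM in sgH2AC19. It fell by 0.19 without overlap (SE 0.0476, limma adjusted p = 0.0283), a call lost without any 1 sgControl library or sgH2AC19 replicate 2 (adjusted p = 0.0811 to 0.0961). MDH1, its cytosolic counterpart in the malate shuttle, was at 35.1 ± 0.418 and 36.7 ± 0.753 FPKM (0.06, adjusted p = 0.296). The MDH2 share of both was 64.1 ± 0.166% in sgControl and 59.9 ± 0.96% in sgH2AC19 (exact permutation p = 0.1, adjusted p = 0.2).

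ME1, the cytosolic malic enzyme that makes NADPH and pyruvate from malate, showed the largest rise of the 50 genes. It was at 33.8, 30.7 and 32.0 FPKM in sgControl and 49.2, 56.1 and 47.2 FPKM in sgH2AC19. The groups were far apart, and the log2 fold change was 0.64 (SE 0.0711, limma adjusted p = 0.00168), 1.56-fold as a ratio of FPKM + 1. The call held in all 13 alternatives, with log2 fold changes from 0.57 to 0.69. ME1 (ENSG00000065833) lies on chromosome 6 from 83210389 to 83431071 on the minus strand in GENCODE 29.

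Of 73 further genes of these routes 47 were tested, of which 7 rose, 3 fell and 37 were not called (21.3% called, against 23.1% of all genes tested). Besides PDK4, the rises included SDHB, the iron-sulphur subunit of succinate dehydrogenase, at 19.7 ± 0.224 FPKM in sgControl and 24.1 ± 1.15 FPKM in sgH2AC19 (log2 fold change 0.28, limma adjusted p = 0.00773). Smaller rises were those of the mitochondrial malic enzyme ME3 (0.24), the alanine transaminase GPT2 (0.21), pyruvate carboxylase PC (0.20) and BSG, the chaperone of the lactate transporters (0.13). The falls were PGM2 (−0.34), a sugar phosphate mutase, SLC25A11 (−0.31), the oxoglutarate and malate carrier of the inner membrane, and BPGM (−0.22), which makes 2,3-bisphosphoglycerate. PDK4, SDHB and SLC25A11 kept their calls in all 13 alternatives. PC and BSG lost theirs without any 1 library (adjusted p = 0.0558 to 0.14 and 0.0515 to 0.141) and with either other scaling. ME3 and BPGM lost theirs in 5 of the 6 fits without 1 library, all but that without sgH2AC19 replicate 3 (0.0602 to 0.127 and 0.0735 to 0.102). GPT2 lost its call without any 1 sgControl library or sgH2AC19 replicate 1 (0.0591 to 0.0836), and PGM2 without sgControl replicate 1 or 2 (0.0526 to 0.0545).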

How the data were processed

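Per the labels' protocols, RNA was harvested with an RNeasy kit and sequenced from SMARTer mRNA libraries. The deposited table holds FPKM computed by the authors, 1 column per library, per the file headers. Neither aligner nor counting tool nor annotation release is given in the sources used here. GRCm38 and mm10, both mouse builds, are named in the submitters' processing notes, yet all 62700 gene IDs matched human genes and 0 carried the mouse prefix.

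Values were taken as log2(FPKM + 1) for the 12871 genes that reached 1 FPKM in 3 or more libraries. The groups were compared, two-sided, by limma 3.58.1 under R 4.3.3 (trend option on), with Benjamini-Hochberg adjustment over all genes tested and a threshold of 0.05. The method was tested on simulated data. Fold changes on this scale understate those of low genes. Means ± SD are of FPKM over 3 libraries. Reads were recovered from the FPKM steps with gene lengths of GENCODE 29. They came out whole, within 0.001 reads, for 12870 of the 12871 genes, of which 3759 needed no change of the annotated length and the rest took the shortest length giving whole numbers. Members had 163 to 173398 reads per library.

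Isoenzyme shares were taken over the members of a step only and compared with exact permutation tests. Alternatives were median-ratio and upper-quartile scaling, a pseudocount of 0.1, testing every gene above 0 FPKM, a filter on the mean (1 FPKM), blocking on replicate number, voom on the recovered reads, and leaving out each library. Other steps used Python 3.11.15 with scipy 1.17.1, numpy 2.4.6, matplotlib 3.10.9 and pandas 2.3.3. The members and lists were chosen with earlier results of these data known. Any member could be named, and of 73 further genes of the routes those called, of which 1 is counted but not reported by name here.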

Additional observations from a re-analysis of the deposited data

How the results depend on the processing

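All genes above 0 FPKM as the tested set gave 1553 calls in place of 2967 over all genes, 7 in place of 17 among the members and 4 in place of 10 among the further genes of the routes, with 36938 genes tested. Without 1 library the counts ran from 1522 to 3468, from 6 to 23 and from 4 to 13, highest without sgH2AC19 replicate 3. The other scalings, the pseudocount, the mean filter and voom left the member count at 17 to 22. Of the 17 members called, 5 (PFKL, ALDOC, LDHB, IDH3G and ME1) kept their call in all 13 alternatives, and none changed direction. Testing all genes above 0 FPKM ended 10 of the 17 calls, those of GPI (adjusted p = 0.0584), PFKM (0.081), PFKP (0.105), ALDOA (0.144), GAPDH (0.24), PGK1 (0.11), TKT (0.0565), IDH2 (0.0809), IDH3A (0.0814) and MDH2 (0.0747), and those of PGM2 (0.0524), GPT2 (0.0566), BPGM (0.0859), PC (0.12), ME3 (0.142) and BSG (0.0797) among the further genes.

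Same-numbered libraries deviated together only weakly (r = 0.0524, 0.0346 and 0.0602 across genes), so the numbers were not taken as pairs, though each library correlated best with its own number. With the replicate block 2729 genes, 15 members and 8 further genes were called. The block ended the calls of PFKM (adjusted p = 0.0618), ALDOA (0.0729), GAPDH (0.0662), BPGM (0.057), PC (0.0844) and BSG (0.0785), and LDHA passed (0.0407).

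Members with fewest reads, such as MPC1 (163 to 240 per library) and PDK2 (189 to 332), were measured least precisely by counting.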
